A study of Mus musculus with 39 samples.

Results

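Microglia of 10-month-old 5XFAD and wild-type (WT) female mice that had breathed room air were compared by bulk mRNA sequencing, to ask how the 5XFAD genotype changes gene expression in these cells without intermittent hypoxia. The libraries were those labelled female, normoxia (NX) and either genotype, 9 of the 39 in the series: 4 of WT NX and 5 of 5XFAD NX. They are called WT 1 to WT 4 and 5XFAD 1 to 5XFAD 5 here, with the numbers of their titles. 5XFAD mice carry mutant human genes of familial Alzheimer's disease under a promoter that drives them mainly in neurons, and they form amyloid plaques. The mice came from C57BL/6J females mated to 5XFAD males of a B6SJL background, and NX animals were kept at 21% O2 from 4 months of age as the controls of a chronic intermittent hypoxia (CIH) arm. CD11b+ cells were pulled with magnetic beads from perfused cerebrum after papain digestion and myelin removal. CD11b is found on microglia and on other myeloid cells, so the gate does not separate microglia from macrophages of the brain's borders, monocytes or neutrophils.

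Microglia are the resident macrophages of the brain. In the healthy brain they express a homeostatic set of genes, among them the purine receptor P2ry12 and the membrane protein Tmem119, and depend on signalling through the receptor Csf1r. Around amyloid plaques they take on a state known as disease-associated microglia (DAM), in which the lipid-sensing receptor Trem2 and its adaptor Tyrobp are required for much of the rise in genes of phagocytosis, lysosomes and lipid handling. A smaller share of microglia shows a response to type I interferon.

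Total counts were 14731683 to 25906121 per library. Levels are given as CPM, the count of a gene relative to all counts of its library, after TMM scaling, an edgeR method that sets libraries to a common scale, and 1 CPM corresponded to 14.7 to 25.9 reads. The markers matched the label. Csf1r was at 8497 to 9431 CPM in WT and 7532 to 8205 CPM in 5XFAD, and the 30 homeostatic genes together at 58965 to 66776 CPM in WT. Every marker list of other cells summed to at most 1416 CPM in any library. The neuron markers summed to 25.6 to 61.4 CPM in WT, 38.9 CPM in 5XFAD 4 and 13.4 to 47.3 CPM in the other 5XFAD libraries. In the same order, the neutrophil markers summed to 51.6 to 269, 303 and 12.1 to 68.99 CPM, and the border macrophage markers to 209.6 to 427, 103 and 110 to 184 CPM. The sums were 346 to 523, 368 and 382 to 459.9 CPM for lymphocyte markers, 134 to 634, 211 and 124 to 199.9 CPM for monocyte markers and 17.1 to 110.2, 38.05 and 17.7 to 27.02 CPM for erythroid markers. Oligodendrocyte lineage markers were at 220.3 to 369.7, 169.8 and 381 to 432 CPM, and endothelial and mural markers at 416 to 591, 356 and 647 to 1036 CPM. In both sums the 4 other 5XFAD libraries lay above every WT library, but few members carried this. Of 9 oligodendrocyte lineage genes tested 3 were higher in 5XFAD (median log2 fold change −0.17) and without Cspg4 the sums overlapped, at 219 to 366 CPM in WT and 293 to 329 CPM in these libraries. Of 13 endothelial and mural genes tested 3 were higher (median −1.16). The part of such cells in the results was not tested. In bulk libraries, fewer cells of a type and less RNA per cell cannot be told apart.

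Among the libraries, 5XFAD 4 stood apart from its group. On the first principal component of log2 CPM, which held 59.7% of the variance, it lay at −43.97, within the WT range of −52.26 to −31.44, while the other 4 5XFAD libraries lay at 31.17 to 67.93. It also had at least 1 count on 38551 genes, against 21697 to 25029 in the other 8 libraries. Of these genes, 9791 had counts in no other library, with a median of 3 counts and 39770 counts in all, or 0.27% of its total. Each other library had between 52 and 196 such genes. On the principal component it thus lay with WT and against its label. Whether it was mislabelled, mixed with another sample or held other nucleic acid was not tested, which leaves every value over 9 libraries with that doubt. 5XFAD 4 is kept in the values over 9 libraries, and list counts without it are given beside them for most lists.

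A second library, WT 1, stood apart on a smaller set of genes. There were 110 genes that reached at least 5 CPM in WT 1 and more than 4 times the highest of the other 3 WT libraries (a value under 0.5 CPM there was set to 0.5), against 7, 1 and 2 genes for WT 2, WT 3 and WT 4. Among the leading ones were genes of macrophages: the osteopontin gene Spp1, the lysosomal glycoprotein gene Gpnmb, the macrophage elastase gene Mmp12, the galectin gene Lgals3 and the fatty acid binding protein gene Fabp5. Mmp12 was at 474, 1.90, 4.69 and 3.73 CPM in WT 1 to WT 4 and at 6.41, 10.6, 5.60, 11.7 and 6.86 CPM in 5XFAD 1 to 5XFAD 5. WT 1 alone was high, above every 5XFAD library. WT 1 also had 634 CPM of monocyte markers against 134 to 182 CPM in WT 2 to WT 4, and 269 CPM of neutrophil markers against 51.6 to 82.6 CPM. The part of WT 1 in the results below was measured by leaving it out, and the reason for its profile was not tested.

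**Figure D1:**
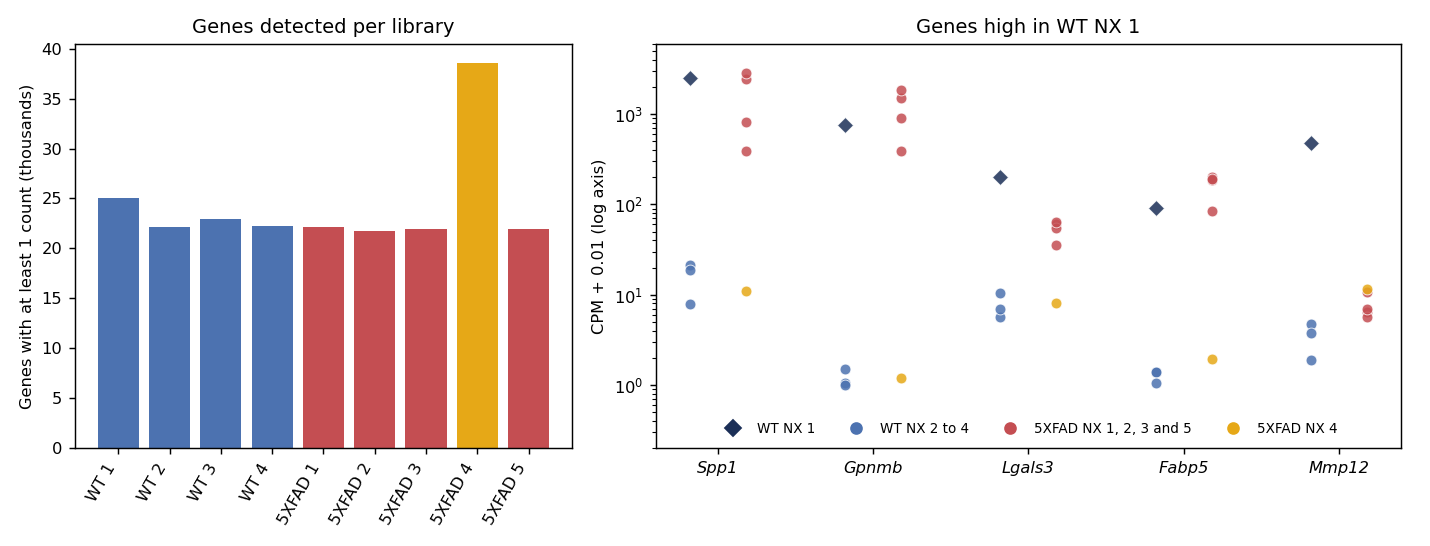
Left, bars of the number of genes (in units of 1000) with at least 1 count in each of the 9 libraries, highest in 5XFAD 4. Right, CPM of 5 genes on a log axis (a small constant was added so that 0 can be drawn), 1 point per library, with WT 1 as a diamond and 5XFAD 4 in its own colour. WT 1 lies at 2543 CPM for Spp1, against 7.93 to 21.6 CPM in the other WT libraries, and 5XFAD 4 lies at 10.9 CPM, among the latter.

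Over all 9 libraries 14513 genes were tested, and 869 were differentially expressed (DEGs: false discovery rate, FDR, below 0.05 and absolute log2 fold change above 1), or 5.99%. Of these, 638 were higher in 5XFAD (4.4% of the genes tested) and 231 were lower (1.59%). Every adjusted p given here is from edgeR's quasi-likelihood test with Benjamini-Hochberg adjustment over all genes of that fit. Each fold change is 5XFAD minus WT on the log2 scale. Its SE is the absolute fold change divided by the square root of the test's F statistic. Without 5XFAD 4, 14149 genes were tested and 1880 were DEGs (13.3%), 1013 higher (7.16%) and 867 lower (6.13%). All but 4 of the 869 DEGs were among the 1880 with the same sign, and 1015 were DEGs only without 5XFAD 4. Leaving out WT 1 beside 5XFAD 4 gave 2072 DEGs of 13962 tested (14.8%), 1184 higher (8.48%) and 888 lower (6.36%). The count over 9 libraries fell when any 1 library other than 5XFAD 4 was left out. It was 27 without WT 3, 100 without WT 4, 103 without 5XFAD 5 and 525 without WT 1, the highest of these 8 counts. At an FDR below 0.01 over 9 libraries it was 7, so most of the 869 DEGs had an FDR between that limit and 0.05. In the fit without 5XFAD 4, leaving out any further library gave 1644 to 2171 DEGs. List counts below are to be read beside the shares of all genes above, and their ranges are given over the same 8 fits that each leave out 1 library other than 5XFAD 4 and over the 8 fits that leave out 1 library beside it. The share of DEGs that were higher was 73.4% over 9 libraries and 49.7% on log2(FPKM + 1) values with limma. Without 5XFAD 4 it was 53.9%, and 35% when libraries were scaled by their totals alone, which moved the median of all genes by more than 0.1, to −0.26.

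**Figure D2:**
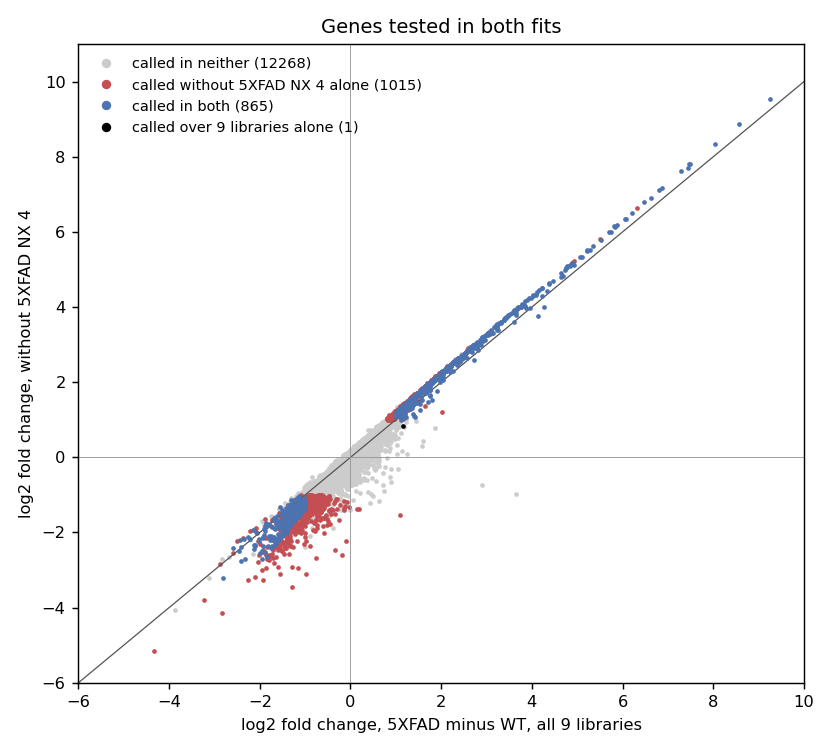
Log2 fold change of each gene, 5XFAD minus WT, over 9 libraries (horizontal axis) and without 5XFAD 4 (vertical axis), with genes coloured by the fit in which they were called. The line marks equal values. The 865 genes called in both fits lie on the same side of 0 on both axes, and the 1015 called only without 5XFAD 4 make up the larger called group.

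Where 5XFAD 4 lay was not the same for all genes. A position was computed for each gene called without it, with 0 at the mean log2 CPM of WT and 1 at that of the other 4 5XFAD libraries. The median position was 0.0153 over the 1013 genes higher in 5XFAD and 0.102 over the 867 lower ones. 5XFAD 4 was within the WT range for 511 (50.4%) of the former and 411 (47.4%) of the latter, and within the range of the other 5XFAD libraries for 52 and 72. For a further 224 and 138 genes it lay beyond WT, away from the other 5XFAD libraries. Genes of 2 lists lay at the other end of this scale. For all 9 border macrophage genes and all 7 choroid plexus genes called, 5XFAD 4 lay in the range of the other 5XFAD libraries or beyond it, away from WT. Their median positions were 1.25 and 1.71.

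**Figure D3:**
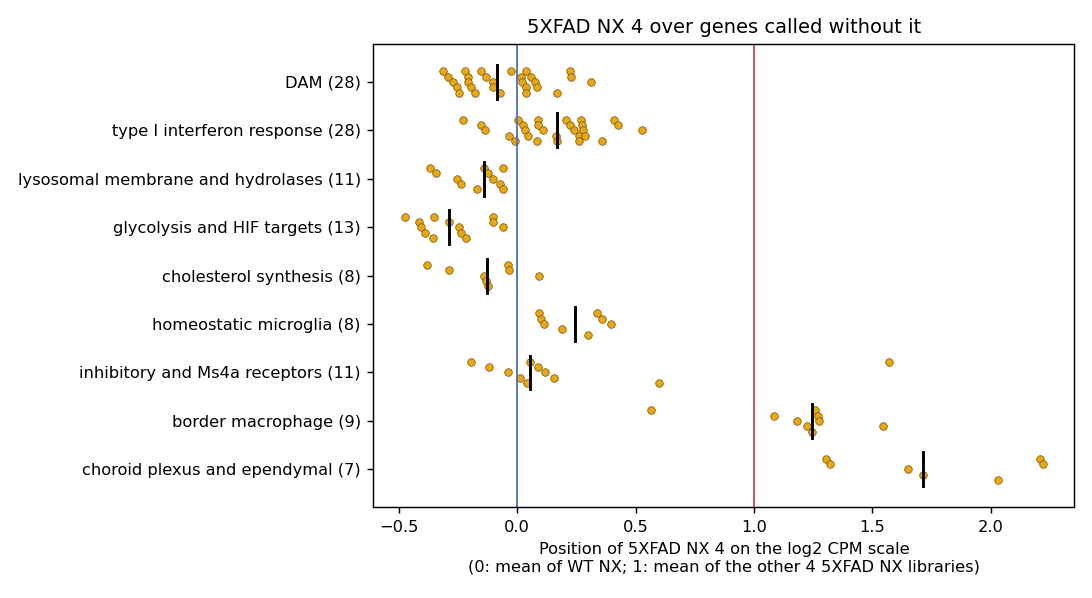
Position of 5XFAD 4 for the genes of 9 lists that were called without it, 1 point per gene and a bar at each list's median, on a scale where 0 is the mean of WT and 1 the mean of the other 4 5XFAD libraries in log2 CPM. The medians of DAM (−0.0859), lysosomal (−0.139), cholesterol (−0.128) and glycolysis genes (−0.287) lie at or under WT, whereas those of border macrophage and choroid plexus genes lie above 1.

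The largest rises over 9 libraries were in genes that WT microglia hardly expressed. Among genes called and without overlap between the groups, 234 were higher and 184 lower, and irrespective of the test 511 genes (3.52%) lay above WT in all 5XFAD libraries and 1141 (7.86%) lay below. Dkk2, which encodes a secreted modulator of Wnt signalling, was at 0.328, 0.0575, 0.153 and 0.11 CPM in WT and 108, 100.4, 36.3, 0.704 and 104 CPM in 5XFAD. Trpm1, a cation channel gene best known from retina and melanocytes, was at 0.0729, 0, 0.204 and 0.22 CPM in WT and 39.2, 50.8, 26.8, 2.52 and 48.1 CPM in 5XFAD, a difference of 8.03 ± 1.03 (adjusted p = 0.0102). In both genes 5XFAD 1, 2, 3 and 5 lay more than 10-fold above every WT library, and 5XFAD 4 lay above WT but far under these 4. The genes counted in 5XFAD 4 alone held up to 49 counts there, and the part of such counts in the separation of low genes was not tested.

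Several leading genes had no more than 3 counts in any WT library, so that a fold can only be bounded. Against 3 counts per library, the mean of the 5XFAD libraries was at least 48.8-fold higher for Ctnna3, a catenin gene of cell adhesion, at least 43.3-fold for Apoc4, an apolipoprotein gene, at least 27.8-fold for Wif1, a secreted Wnt inhibitor gene, and at least 22.5-fold for Yipf7. Ctnna3 was at 11.2, 9.48, 6.39, 0.997 and 8.45 CPM and Apoc4 at 12.1, 3.16, 1.38, 0.176 and 15.6 CPM in 5XFAD 1 to 5XFAD 5. Without 5XFAD 4 the bounds were 59.3-, 53.9-, 33.7- and 28.1-fold. Baiap2l2, which encodes a protein that bends membranes, was at 0.438, 0.23, 1.58 and 1.37 CPM in WT and 159.8, 214, 130.4, 2.40 and 195 CPM in 5XFAD (7.29 ± 1.18, adjusted p = 0.0162). Tmem163, a zinc transporter gene, was at 0.109, 0.23, 0.561 and 0.11 CPM in WT and 23.9, 35.04, 18.6, 0.762 and 33.5 CPM in 5XFAD (6.47 ± 1.05, adjusted p = 0.0162). These rises were carried by 5XFAD 1, 2, 3 and 5, with 5XFAD 3 mostly the lowest of the 4.

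**Figure D4:**
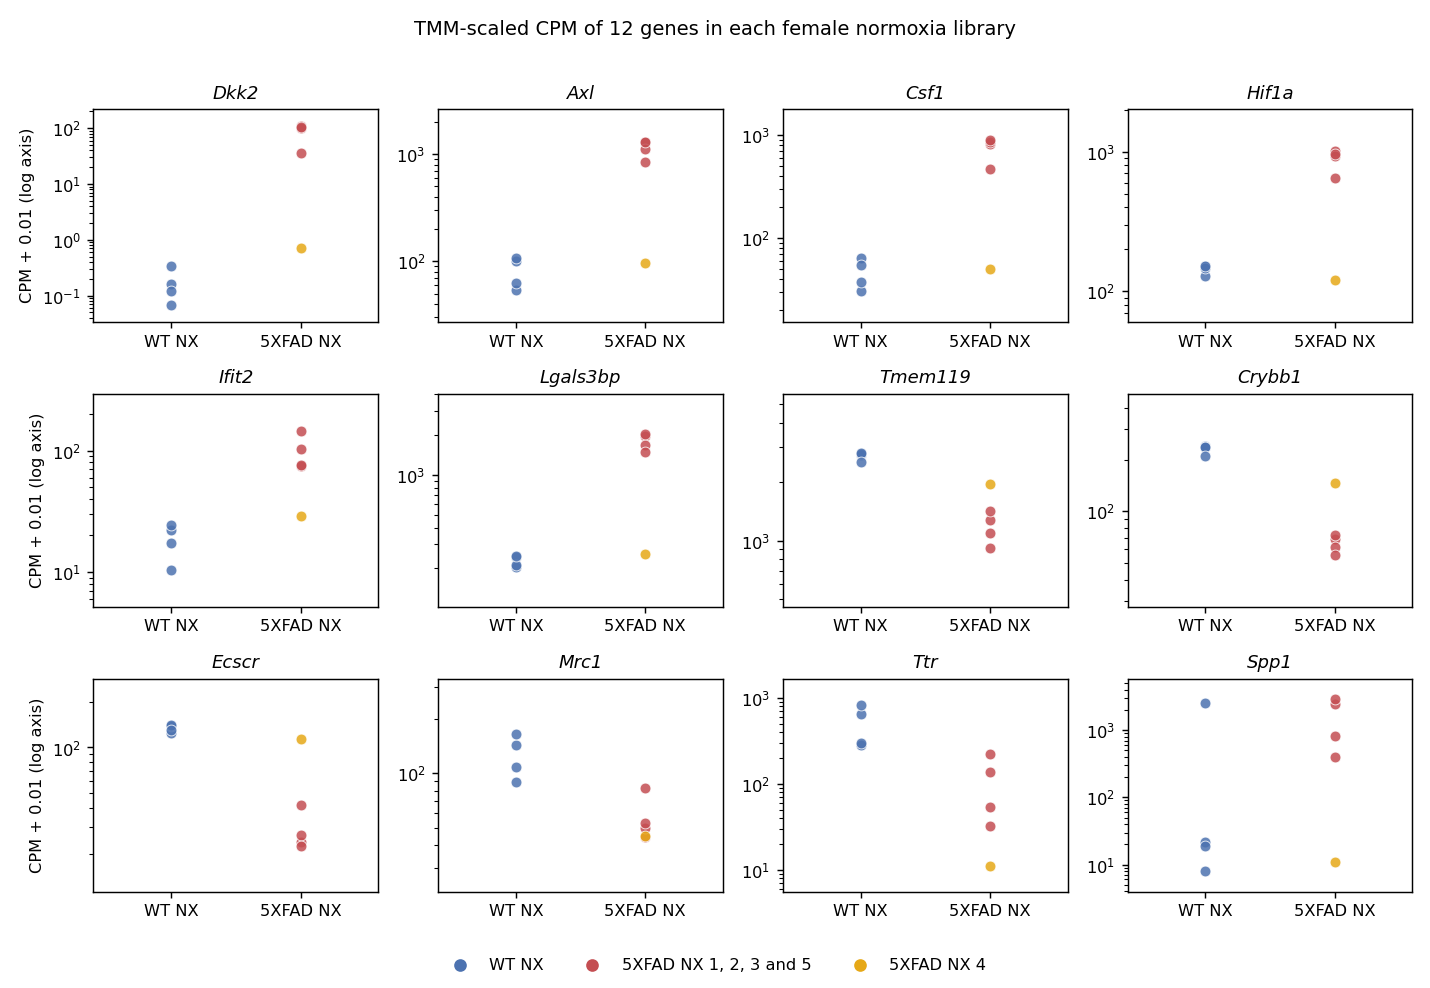
Level of 12 named genes in each library, as CPM on a log axis (a small constant was added so that 0 can be drawn), 1 point per library, with WT and 5XFAD side by side and 5XFAD 4 in its own colour. For Axl, Csf1 and Hif1a 5XFAD 4 sits at the level of WT, and for the border macrophage gene Mrc1 it sits at 44.96 CPM, among the other 5XFAD libraries.

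The DAM list held 33 genes, all tested. Over 9 libraries 24 rose and 0 fell, with a median log2 fold change of 1.92 against −0.02 over all genes tested. Without 5XFAD 4 it was 28 of 33 and a median of 2.15 against −0.04. With WT 1 left out as well, all 33 rose, and with WT 1 alone left out 19 rose. The ranges with 1 library left out were 0 to 19 over 9 libraries, with 0 without WT 3 or WT 4, and 28 to 33 beside 5XFAD 4, and the medians stayed at 1.75 to 2.36 and 1.98 to 2.63. The 5 genes that were not called until WT 1 was left out were Spp1, Gpnmb, Fabp5, Lgals3 and the lysozyme gene Lyz2. Spp1 was at 2543, 7.93, 21.6 and 18.8 CPM in WT and 2469, 816, 393, 10.9 and 2897 CPM in 5XFAD, and Gpnmb at 755, 1.03, 1.48 and 0.988 CPM in WT and 1522, 908, 394, 1.17 and 1865 CPM in 5XFAD. In both, WT 1 was within the range of the 4 high 5XFAD libraries, the other 3 WT libraries were low, and 5XFAD 4 was as low as these. Over 9 libraries the difference in Spp1 was 1.02 ± 1.72 (adjusted p = 0.7), without 5XFAD 4 it was 1.33 ± 1.54 (adjusted p = 0.505), and without both libraries it was 6.66 ± 0.81 (adjusted p = 0.000182). For Gpnmb the same differences were 2.30 ± 2.03 (adjusted p = 0.443), 2.62 ± 1.72 (adjusted p = 0.241) and 9.95 ± 0.68 (adjusted p = 8.64e-06). Lgals3 turned its sign, from −0.35 ± 1.04 over 9 libraries to 2.81 ± 0.25 without both (adjusted p = 3.52e-05). In Mmp12 all 5XFAD libraries lay far below WT 1, and for Lgals3 they lay below it as well. Without both libraries Mmp12 differed by 1.08 ± 0.32 (adjusted p = 0.0212).

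Among receptors of the DAM list, Axl, a receptor that binds apoptotic cells, was at 101, 54.4, 62.9 and 107 CPM in WT and 1309, 1109, 849, 97.1 and 1301 CPM in 5XFAD (3.52 ± 0.65, adjusted p = 0.0175). Clec7a, which encodes the glucan receptor Dectin-1, was at 106, 25, 50.9 and 63.9 CPM in WT and 822, 874, 564, 57.3 and 767 CPM in 5XFAD (3.32 ± 0.71, adjusted p = 0.0236). Itgax, the integrin CD11c, was at 104, 27.5, 42.2 and 52.8 CPM in WT and 1471, 1310, 646, 56.3 and 1562 CPM in 5XFAD (4.15 ± 0.85, adjusted p = 0.021). The groups overlapped in all 3 through 5XFAD 4, and the other 4 5XFAD libraries were several-fold above the highest WT library. Tyrobp, the adaptor, was at 496, 461, 555 and 434 CPM in WT and 1497, 1816, 1142, 374 and 1880 CPM in 5XFAD (1.46 ± 0.39, adjusted p = 0.039). Of 28 phagocytic and scavenger receptor genes tested, 4 rose, which were Itgax, Axl, Clec7a and Trem2, and 1, the scavenger receptor gene Stab1, fell. Without 5XFAD 4 it was 4 and 3, and the ranges of the rises were 0 to 3 and, beside 5XFAD 4, 4 to 5.

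Of 20 growth and secreted factor genes, 5 rose, against 4.4% of all genes tested, which were Igf1, Csf1, Fgf1, Pdgfc and the metalloproteinase inhibitor gene Timp2. Without 5XFAD 4 it was 7, and 1 fell. The ranges of the rises were 0 to 5 with 1 library left out and 5 to 13 beside 5XFAD 4. Igf1, insulin-like growth factor, was at 18.5, 3.68, 10.3 and 6.91 CPM in WT and 369.9, 408, 192, 3.87 and 366 CPM in 5XFAD (4.75 ± 1.06, adjusted p = 0.0255). Csf1, a ligand of Csf1r, was at 64.9, 30.8, 37.9 and 55.2 CPM in WT and 819, 857, 467, 50.2 and 894 CPM in 5XFAD (3.71 ± 0.71, adjusted p = 0.0185). Fgf1, a fibroblast growth factor, was at 3.50, 4.02, 4.75 and 3.68 CPM in WT and 44, 46.7, 27.2, 4.69 and 49.1 CPM in 5XFAD (3.11 ± 0.57, adjusted p = 0.0175). Each was low in 5XFAD 4. Of 16 chemokine genes only Ccl3 and Ccl4 rose over 9 libraries, and here 5XFAD 4 also lay above WT. Ccl3 was at 65.9, 64.9, 38.5 and 50.5 CPM in WT and 239, 328, 161, 88.1 and 366 CPM in 5XFAD (2.10 ± 0.39, adjusted p = 0.0175), and Ccl4 at 74.7, 85.99, 44.03 and 82.9 CPM in WT and 261, 377, 174, 109.8 and 436 CPM in 5XFAD (1.92 ± 0.39, adjusted p = 0.021). Of 17 cytokine and inflammasome genes, 2 rose (Tnfsf8 and Mif) and 1 fell (Il6). Of 19 Wnt ligands, receptors and antagonists tested, 3 rose (Wif1, Dkk2 and Fzd9) and 1 fell (Sostdc1). Without 5XFAD 4, 5 chemokine genes rose and 1 fell, 4 cytokine genes rose and 1 fell, and 4 Wnt genes rose and 3 fell. The ranges of the rises with 1 library left out were 0 to 2, 0 to 3 and 0 to 3, and beside 5XFAD 4 they were 5 to 8, 2 to 8 and 3 to 5. Those of the falls were 0, 0 and 0 to 1, so the fall of Il6 was lost in each, and beside 5XFAD 4 they were 0 to 2, 1 and 2 to 3.

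Genes of the lysosome rose in part. Of 35 genes of lysosomal membrane proteins and hydrolases, 8 rose over 9 libraries (median 0.69), against 4.4% of all genes, and 11 without 5XFAD 4 (median 0.84), against 7.16%, and 0 fell in either. Across fits that left out 1 library, it was 0 to 3, 3 being the count without WT 1, and beside 5XFAD 4 it was 10 to 14. The 8 were Mcoln3, an ion channel gene, the glycosidase genes Glb1, Gusb, Hexa and Naglu, Cd63, Cd68 and the cholesterol carrier gene Npc2. Glb1, which encodes the lysosomal beta-galactosidase, was at 74.6, 71.8, 85.5 and 68.7 CPM in WT and 304, 305, 212, 69.1 and 317 CPM in 5XFAD (1.68 ± 0.37, adjusted p = 0.0253). The subunit gene Atp6v0d2 of the lysosomal proton pump was at 32.4, 0.115, 0.714 and 0.165 CPM in WT and 54.6, 51.6, 18.3, 0.117 and 61.9 CPM in 5XFAD (2.11 ± 1.45, adjusted p = 0.324), with WT 1 as the only WT library above 1 CPM. Tfeb and Tfe3, which encode activators of lysosomal genes, differed by −0.15 ± 0.09 (adjusted p = 0.288) and −0.35 ± 0.09 (adjusted p = 0.0419), so neither was a DEG. Of 17 cathepsin and cystatin genes, 5 rose over 9 libraries, which were Cst7, Ctse, Ctsd, Ctsb and Ctsz, and without 5XFAD 4 7 rose and 1 fell (Ctsk). With 1 library left out it was 0 to 2, 2 being the count without WT 1, and beside 5XFAD 4 it was 7 to 8. Ctse, an aspartic protease gene, was at 3.21, 1.67, 1.74 and 2.74 CPM in WT and 82.1, 99.8, 53.04, 2.70 and 101 CPM in 5XFAD (4.83 ± 0.86, adjusted p = 0.0175). Ctsd, the main lysosomal aspartic protease, was at 8635, 7586, 8744 and 7078 CPM in WT and 32490, 32850, 24300, 6495 and 34300 CPM in 5XFAD (1.70 ± 0.44, adjusted p = 0.036). In both, 5XFAD 4 lay at or under the WT level. The cysteine protease gene Ctsk was high in WT 1 alone, with 51.5, 1.03, 1.17 and 0.658 CPM in WT and 0.32, 0.198, 0.857, 1.82 and 0.184 CPM in 5XFAD. Its fall without 5XFAD 4 (−5.15 ± 1.59, adjusted p = 0.0246) rested on WT 1, without which, over the other 8 libraries, it differed by −0.49 (adjusted p = 0.668).

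Per gene length, Cst3, Apoe and Ctsd were the highest of the genes listed here in 5XFAD 1, 2, 3 and 5. Their mean FPKM (CPM by library totals, per kilobase of gene) was 14902, 14825 and 14605, against 16907, 1340 and 4439 in WT. Cst3, which encodes the protease inhibitor cystatin C, was thus the highest of the 3 in WT, and its counts differed by −0.05 ± 0.21 (adjusted p = 0.888). Cst7 encodes another cystatin, and its mean FPKM was 1755 in these 5XFAD libraries and 14.9 in WT.

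Many lysosomal genes are known targets of TFEB and related factors, which bind E-box sequences. In RefSeq promoter windows of GRCm38.p6 (250 bases before to 50 after a transcription start), the E-box CACGTG, the same on both strands, was in 7.15% of all 32851 windows and in 9.61% of those of the genes tested. It was in 7 of 34 windows of the lysosomal list (20.6%) and in 5 of 14 of the cathepsin and cystatin list (35.7%). The list of cholesterol synthesis held it in 4 of 18 windows (22.2%), and the interferon list in 0 of 28. These shares describe letters in a window and not binding. Of the 12 genes of the lysosomal and cathepsin lists with a match, 3 rose over 9 libraries (Glb1, Naglu and Ctsd) and 7 without 5XFAD 4. In the whole lists, 8 of 35 lysosomal and 5 of 17 cathepsin and cystatin genes rose over 9 libraries, and 11 and 7 without 5XFAD 4. The windows of Glb1 and Ctsd are shown because both genes rose and both hold the E-box, given in capitals, from chr9:114400828-114401127 on the plus strand and chr7:142387778-142388077 on the minus strand, respectively.
Glb1: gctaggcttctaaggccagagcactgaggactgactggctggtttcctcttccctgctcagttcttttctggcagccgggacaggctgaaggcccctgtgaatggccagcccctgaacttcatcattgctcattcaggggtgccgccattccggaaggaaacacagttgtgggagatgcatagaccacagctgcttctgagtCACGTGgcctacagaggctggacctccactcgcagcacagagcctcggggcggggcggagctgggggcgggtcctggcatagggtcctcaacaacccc
Ctsd: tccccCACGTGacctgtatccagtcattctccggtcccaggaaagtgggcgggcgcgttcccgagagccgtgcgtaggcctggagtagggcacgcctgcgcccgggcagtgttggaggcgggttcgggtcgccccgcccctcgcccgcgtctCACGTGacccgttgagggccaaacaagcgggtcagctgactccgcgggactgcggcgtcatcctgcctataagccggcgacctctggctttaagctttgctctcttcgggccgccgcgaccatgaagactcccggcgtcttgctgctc

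In lipid handling, 9 of 28 genes tested rose, among them Apoc4, Fabp3, Ch25h, Apoe, Lpl, Nceh1, Dgat2 and Soat1. Without 5XFAD 4 it was 12, and 2 fell (Vldlr and Cd36). With single libraries left out 0 to 6 rose, and 10 to 15 beside 5XFAD 4. The falls were 0 to 1 and, beside 5XFAD 4, 0 to 3, with 0 when WT 1 was left out beside it. Lpl, lipoprotein lipase, was at 187, 21.5, 46.02 and 74.02 CPM in WT and 833, 959.8, 566, 93.7 and 934 CPM in 5XFAD (3.04 ± 0.76, adjusted p = 0.0347), and the groups overlapped only in that 5XFAD 4 lay below WT 1. Ch25h makes 25-hydroxycholesterol, and was at 7.08, 1.61, 4.75 and 3.40 CPM in WT and 128, 97.3, 63.7, 7.86 and 146 CPM in 5XFAD (4.37 ± 0.78, adjusted p = 0.0175), without overlap. Of 20 genes of cholesterol synthesis, 4 rose over 9 libraries (Insig1, Cyp51, Idi1 and Srebf2) and 8 without 5XFAD 4, with medians of 0.77 and 0.93, and with libraries scaled by their totals alone 2 and 5 rose. Over 9 libraries 0 rose once any 1 library other than 5XFAD 4 was left out, WT 1 included, and beside 5XFAD 4 it was 7 to 11. Cyp51, the lanosterol demethylase, was at 15.8, 10.98, 14.2 and 14.9 CPM in WT and 44.9, 41.4, 27.4, 13.4 and 42.2 CPM in 5XFAD (1.28 ± 0.31, adjusted p = 0.0323). Srebf2, which encodes the activator of these genes, was at 62.6, 53.5, 57.5 and 62.5 CPM in WT and 162, 154, 114, 52.8 and 149.8 CPM in 5XFAD (1.10 ± 0.27, adjusted p = 0.0347). Of the early enzyme genes of the pathway, Hmgcs1 differed by 0.55 ± 0.18 (adjusted p = 0.0692) and was no DEG. The sterol element TCACNCCAC was in 1 of 18 windows of this list (5.56%), that of Hmgcs1, in 2 of 14 of the cathepsin and cystatin list (14.3%) and in 1.24% of all windows.

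Of 34 genes of the type I interferon response, 24 rose over 9 libraries (median 1.49) and 28 without 5XFAD 4 (median 1.68), and in 14 of the 34 every 5XFAD library lay above every WT library, as in 3.52% of all genes tested. When 1 library was left out, 0 to 13 rose, 13 being the count without WT 1, and beside 5XFAD 4 it was 27 to 28. The medians stayed at 1.27 to 1.64 and 1.49 to 1.84. Of the 28 genes called without it, 5XFAD 4 lay within the WT range in 18 and between the groups in 10, with a median position of 0.166, beside −0.0859 over the 28 DAM genes. Ifit2, an antiviral effector, was at 22.1, 10.3, 17.5 and 24.4 CPM in WT and 146, 74.5, 76.8, 28.7 and 104 CPM in 5XFAD (2.21 ± 0.43, adjusted p = 0.019). Usp18, which encodes an inhibitor of the interferon receptor, was at 10.5, 6.21, 6.84 and 12.1 CPM in WT and 59.2, 32.3, 34.4, 12.1 and 42.1 CPM in 5XFAD (2.01 ± 0.40, adjusted p = 0.0197). Both genes had no overlap between the groups, and 5XFAD 1 was the highest library in each. Oasl2 and Oas1a, of the oligoadenylate synthetase family, rose by 2.63 ± 0.54 (adjusted p = 0.0211) and 2.18 ± 0.47 (adjusted p = 0.0243). Cxcl10, a chemokine induced by interferons, did not pass the test, at 14.5, 2.76, 6.17 and 17.8 CPM in WT and 26.2, 11.7, 14.3, 20.1 and 34.5 CPM in 5XFAD (1.05 ± 0.50, adjusted p = 0.171).

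Interferon-induced genes are known for the interferon-stimulated response element, searched here as GAAANNGAAA on both strands, with overlapping matches counted. It was in 3.44% of all promoter windows and 3.26% of those of the genes tested, and in 17 of the 28 windows matched for the interferon list (60.7%). The 28 windows belonged to 25 of the 34 genes, 16 of which had a match. Of these 16, 9 rose over 9 libraries and 13 without 5XFAD 4, beside 24 and 28 of all 34 genes of the list. The windows of Ifit3, Oas1a and Bst2 are shown because all 3 genes rose and each holds the element in 2 matches, in capitals, which overlap in Oas1a and Bst2. They are chr19:34583279-34583578 on the plus strand, chr5:120907476-120907775 on the minus strand and chr8:71537423-71537722 on the minus strand, from RefSeq with GRCm38.p6.
Ifit3: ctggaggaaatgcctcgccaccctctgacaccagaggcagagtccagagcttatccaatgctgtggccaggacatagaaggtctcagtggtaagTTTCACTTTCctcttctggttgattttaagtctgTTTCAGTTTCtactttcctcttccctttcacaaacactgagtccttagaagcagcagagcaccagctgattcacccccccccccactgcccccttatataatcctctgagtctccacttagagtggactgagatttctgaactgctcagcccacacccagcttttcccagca
Oas1a: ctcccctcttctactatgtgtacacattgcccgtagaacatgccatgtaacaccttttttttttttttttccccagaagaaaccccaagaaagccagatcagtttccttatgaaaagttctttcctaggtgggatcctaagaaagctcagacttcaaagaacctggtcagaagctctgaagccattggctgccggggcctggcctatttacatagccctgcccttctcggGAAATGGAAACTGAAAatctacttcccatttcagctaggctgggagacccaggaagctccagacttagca
Bst2: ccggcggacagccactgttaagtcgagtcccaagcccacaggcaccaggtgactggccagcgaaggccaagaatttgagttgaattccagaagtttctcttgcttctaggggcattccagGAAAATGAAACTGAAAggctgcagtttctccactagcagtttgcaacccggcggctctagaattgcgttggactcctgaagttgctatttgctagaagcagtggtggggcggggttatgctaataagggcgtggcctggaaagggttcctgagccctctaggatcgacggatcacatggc
Ifit3 was at 14.5, 8.62, 15.2 and 19.97 CPM in WT and 91.8, 40.96, 52.9, 20.3 and 59.9 CPM in 5XFAD (1.87 ± 0.39, adjusted p = 0.0226). Oas1a was at 18.6, 7.59, 11.4 and 17.3 CPM in WT and 95.2, 61.97, 60.5, 15.01 and 78.2 CPM in 5XFAD, and Bst2, the antiviral protein tetherin, at 93.4, 57.1, 84.7 and 73.6 CPM in WT and 220.1, 179.5, 149, 65.7 and 235 CPM in 5XFAD. For Ifit3 5XFAD 4 lay just above WT, and for the other two it was within WT.

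Genes that present antigen on MHC molecules were tested by class. Of 18 genes of MHC class I and the immunoproteasome, 8 rose over 9 libraries (median 0.89), against 4.4% of all genes, and 9 without 5XFAD 4. Across fits that left out 1 library, it was 0 to 5, and beside 5XFAD 4 it was 9 to 10. H2-D1 was at 858, 526, 603 and 676 CPM in WT and 2733, 2056, 2746, 602 and 2947 CPM in 5XFAD (1.73 ± 0.40, adjusted p = 0.0283). Nlrc5, the transcriptional activator of class I genes, was at 26.6, 17.6, 19.8 and 31.1 CPM in WT and 132, 61.97, 105, 37.5 and 131 CPM in 5XFAD (1.98 ± 0.37, adjusted p = 0.0177), without overlap. H2 genes are near-identical copies, so reads may be shared among them. Of 10 MHC class II genes 0 rose over 9 libraries (median 0.55), and H2-Aa, H2-Ab1 and Cd74 rose without 5XFAD 4. For class II 0 rose with any 1 library other than 5XFAD 4 left out, and 3 to 4 beside 5XFAD 4. Cd74, the invariant chain, was at 587, 271, 359 and 401 CPM in WT and 1853, 706, 1857, 198 and 2624 CPM in 5XFAD (1.84 ± 0.61, adjusted p = 0.0694; without 5XFAD 4 2.12 ± 0.36, adjusted p = 0.00127). The 5XFAD libraries differed widely among themselves, and 5XFAD 4 was below all of WT.

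Glycolytic genes and targets of hypoxia-inducible factors were examined because these animals were the normoxic arm. Of 29 tested, 5 rose over 9 libraries, against 4.4% of all genes, which were Hif1a, Egln3, Pkm, Gpi1 and the lactate exporter gene Slc16a3, and 13 rose without 5XFAD 4 (medians 0.82 and 0.95). With libraries scaled by their totals alone 3 and 8 rose. With 1 library left out 0 to 2 rose, 2 being the count without WT 1, and beside 5XFAD 4 it was 11 to 17. Hif1a, the oxygen-regulated transcription factor, was at 151, 128, 148 and 151 CPM in WT and 1004, 929.7, 642, 120.4 and 960.2 CPM in 5XFAD (2.34 ± 0.50, adjusted p = 0.0232). Egln3, a prolyl hydroxylase that marks HIF proteins for degradation, was at 10.8, 2.18, 1.53 and 3.02 CPM in WT and 71.7, 93.7, 79.4, 2.64 and 119.8 CPM in 5XFAD (4.02 ± 0.95, adjusted p = 0.0297). Pkm, pyruvate kinase, was at 547, 306, 333 and 292 CPM in WT and 1303, 1181, 879.8, 269.7 and 1355 CPM in 5XFAD (1.43 ± 0.42, adjusted p = 0.0486). WT 1 was the highest WT library in Egln3 and Pkm, and 5XFAD 4 was under all WT libraries in Hif1a and Pkm. Epas1, which encodes the related factor HIF-2alpha, differed by −0.88 ± 0.58 (adjusted p = 0.308) and Vegfa by 0.69 ± 0.62 (adjusted p = 0.455). Gapdh counts, at 12.6, 15.1, 48.7 and 16.8 CPM in WT and 16.4, 152, 18.1, 52.8 and 18.9 CPM in 5XFAD, were low and uneven for a glycolytic enzyme, and Gapdh has many near-identical pseudogenes among which reads may be split.

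Inhibitory and Ms4a receptor genes moved both ways. Of 23 tested, 5 rose (Cd200r4, Pdcd1, Cd22, Cd274 and Siglecf) and 4 fell (Clec12a, Siglece, Clec4a2 and Ms4a4a), against 4.4% and 1.59% of all genes. The latter count was 2 with libraries scaled by their totals alone, and without 5XFAD 4 6 rose and 5 fell, against 7.16% and 6.13%. With single libraries left out 0 to 5 rose and 0 to 2 fell, and beside 5XFAD 4 it was 6 to 7 and 4 to 5. Pdcd1, the checkpoint receptor PD-1, was at 6.75, 5.12, 9.80 and 15.3 CPM in WT and 93.6, 96.5, 60.95, 9.61 and 82.9 CPM in 5XFAD (2.90 ± 0.60, adjusted p = 0.0219). Its ligand gene Cd274 was at 51.1, 43.2, 44.3 and 45.9 CPM in WT and 121, 120, 114, 47.9 and 133 CPM in 5XFAD (1.22 ± 0.25, adjusted p = 0.021). Siglece, an inhibitory receptor for sialic acids, was at 88.5, 86.6, 97.2 and 88.6 CPM in WT and 21.6, 19.5, 28.2, 79.8 and 19.9 CPM in 5XFAD (−1.41 ± 0.41, adjusted p = 0.0479), and Clec4a2, a C-type lectin, at 52.7, 55.5, 63.9 and 59.2 CPM in WT and 13.3, 13.04, 20.2, 49.2 and 13.8 CPM in 5XFAD (−1.39 ± 0.38, adjusted p = 0.0435). In these 4 genes 5XFAD 4 lay next to or inside WT, far from the other 4 5XFAD libraries. In the other 2 genes that fell it did not, at a position of 0.60 in Clec12a and 1.57 in Ms4a4a, within the range of the other 5XFAD libraries and beyond it. Lilrb4a, another inhibitory receptor and a DAM gene, rose without 5XFAD 4 (2.27 ± 0.39, adjusted p = 0.0012), and Cd33, a sialic acid receptor tied to Alzheimer's disease risk, differed by −0.82 ± 0.13 (adjusted p = 0.000666) and was no DEG.

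Most homeostatic genes did not reach the fold limit. Of 30 tested, 2 fell over 9 libraries (Crybb1 and Tmem119), against 1.59% of all genes, and 8 without 5XFAD 4, against 6.13%, with medians of −0.50 and −0.62, and 0 rose in either. In 19 of the 30 every 5XFAD library, 5XFAD 4 included, lay below every WT library, as in 7.86% of all genes tested. When 1 library was left out, 0 to 2 fell, and 7 to 10 beside 5XFAD 4. Crybb1, a crystallin gene, was at 241, 238, 236 and 211 CPM in WT and 69.4, 61.7, 72.5, 146 and 55.6 CPM in 5XFAD (−1.51 ± 0.26, adjusted p = 0.017). P2ry12 was at 2803, 3659, 3951 and 3297 CPM in WT and 1609, 1731, 2016, 2683 and 1450 CPM in 5XFAD (−0.85 ± 0.20, adjusted p = 0.0305), which missed the fold limit, and passed it without 5XFAD 4 (−1.02 ± 0.14, adjusted p = 0.000338). Ecscr, a small membrane protein gene, was at 124, 138, 140.5 and 130 CPM in WT and 24.03, 26.8, 41.97, 113 and 22.8 CPM in 5XFAD, and fell only without 5XFAD 4 (−2.21 ± 0.18, adjusted p = 1.87e-05). For these genes 5XFAD 4 lay between the groups or just under WT. Csf1r, the receptor for a growth factor of macrophages, differed by −0.19 ± 0.15 (adjusted p = 0.398). Trem1, a receptor of myeloid cells in this list, was at 8.90 CPM in WT 1 and 0.494 to 0.92 CPM in the other WT libraries, and rose once WT 1 and 5XFAD 4 were left out (1.40 ± 0.39, adjusted p = 0.0164), against the direction of the list.

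**Figure D5:**
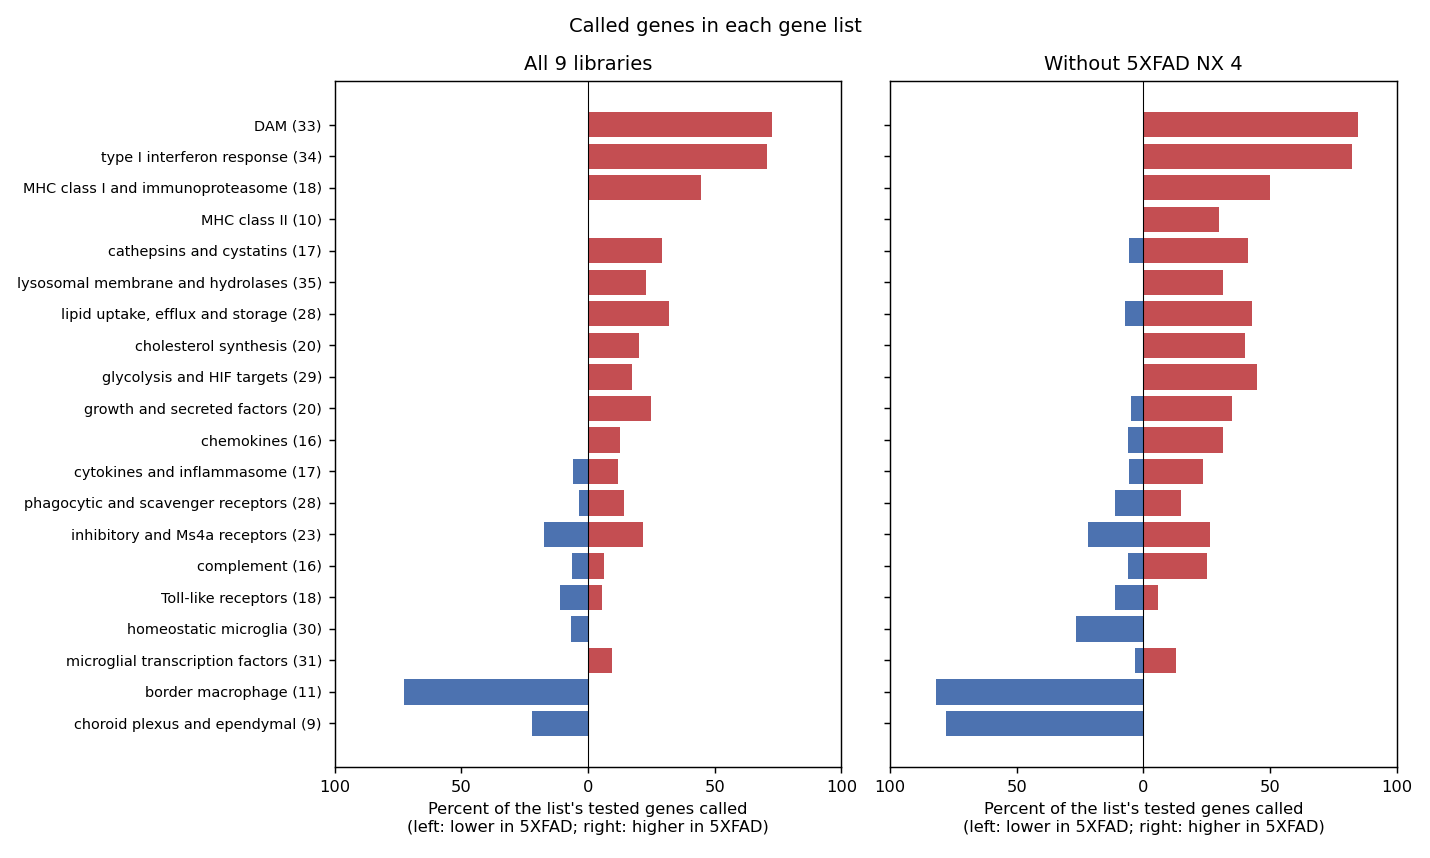
Percent of the tested genes of each list (number in brackets) that were called higher in 5XFAD (bars to the right) or lower (bars to the left), over 9 libraries and without 5XFAD 4. The bar of the DAM list stands for 24 of 33 genes in the panel of all 9 libraries and 28 of 33 in the other, and the border macrophage list is the one in which most genes were lower over 9 libraries (8 of 11).

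Genes of border macrophages, which line vessels and meninges and also carry CD11b, were lower in 5XFAD. Of 11 tested, 8 fell over 9 libraries (Ccr1, Pf4, Cd209f, F13a1, Cbr2, Lyve1, Mrc1 and Cd163) and 9 without 5XFAD 4, with medians of −1.34 and −1.29, against 1.59% and 6.13% of all genes. Across fits that left out 1 library, it was 1 to 7, with 1 without WT 3 and 7 without WT 1, and beside 5XFAD 4 it was 7 to 9. Mrc1, the mannose receptor, was at 143, 89.3, 165 and 108 CPM in WT and 44.4, 49.5, 83.2, 44.96 and 53.1 CPM in 5XFAD (−1.20 ± 0.23, adjusted p = 0.0181). F13a1, coagulation factor XIII, was at 68.6, 31.7, 65.9 and 40.8 CPM in WT and 17.8, 18.3, 28.9, 17.1 and 19.8 CPM in 5XFAD (−1.34 ± 0.25, adjusted p = 0.0175). Cd209f, a lectin gene, was at 14, 10.9, 18.5 and 10.7 CPM in WT and 4.38, 4.02, 6.79, 4.46 and 4.66 CPM in 5XFAD (−1.47 ± 0.21, adjusted p = 0.0124). The groups did not overlap, and 5XFAD 4 was among the lowest libraries, so these falls held with and without it. Folr2 and Ms4a7, of the same list, differed by −0.25 ± 0.26 (adjusted p = 0.515) and −0.81 ± 0.41 (adjusted p = 0.188).

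Genes of the choroid plexus, the epithelium that makes cerebrospinal fluid and that CD11b does not mark, were lower as well. Of 9 tested, 2 fell over 9 libraries (Sostdc1 and Clic6) and 7 without 5XFAD 4, with medians of −2.12 and −1.90, against the same shares of all genes, and 8 fell without WT 1 and 5XFAD 4. With 1 library left out 0 to 4 fell, and 2 to 8 beside 5XFAD 4. Ttr, which encodes the thyroid hormone carrier transthyretin, was at 286, 654, 836 and 298 CPM in WT and 32.8, 54.7, 223, 11.2 and 138 CPM in 5XFAD (−2.50 ± 0.74, adjusted p = 0.0509; without 5XFAD 4 −2.22 ± 0.58, adjusted p = 0.0119). Enpp2, the secreted enzyme autotaxin, was at 139, 284, 438 and 135 CPM in WT and 20.7, 31.6, 134, 8.27 and 72.5 CPM in 5XFAD (−2.22 ± 0.71, adjusted p = 0.061). All 5XFAD libraries lay below all WT libraries for both, and 5XFAD 3 was the highest and 5XFAD 4 the lowest of its group. Over all 12 markers, 9 of them tested, the sums were 466 to 1416 CPM in WT, 30.1 CPM in 5XFAD 4 and 60.5 to 403 CPM in the rest. The 8 largest falls over 9 libraries among genes without overlap held Sostdc1, Ecrg4, which encodes a secreted peptide of this epithelium (−2.43 ± 0.69, adjusted p = 0.0459), and the sodium pump subunit gene Atp1b1 (−2.35 ± 0.44, adjusted p = 0.0179). The other 5 were Emb, the metalloreductase gene Steap2, the superoxide dismutase gene Sod3, the calcium-binding protein gene S100a4 and Apobec2, with differences of −2.81, −2.46, −2.41, −2.41 and −2.32. Without WT 1, which was at 12.5 CPM of S100a4 against 2.13 to 3.47 CPM in the other WT libraries, S100a4 differed by −1.51 (adjusted p = 0.0626). Emb (−2.24, adjusted p = 0.0505), Apobec2 (−2.39, adjusted p = 0.0572) and Ecrg4 (−2.64, adjusted p = 0.0587) were not DEGs either without WT 1, with differences that moved less.

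Without 5XFAD 4, the largest falls among genes without overlap were in Pdzrn4, the chemokine receptor gene Ccr3, Emb, the branched-chain aminotransferase gene Bcat1, the prostaglandin receptor gene Ptger3 and the predicted genes Gm31223, Gm36774 and Gm40579. Ccr3 was at 2.85, 3.97, 3.78 and 3.40 CPM in WT and 0.16, 0.198, 0.659, 3.05 and 0.429 CPM in 5XFAD, and Bcat1 at 1.31, 2.30, 1.58 and 1.48 CPM in WT and 0.0534, 0.198, 0.395, 3.40 and 0.122 CPM in 5XFAD. 5XFAD 4 was within WT for Ccr3 and above every WT library for Bcat1, and the other 4 5XFAD libraries were far lower in both. Over 9 libraries Ccr3 differed by −1.94 ± 0.72 (adjusted p = 0.0931) and Bcat1 by −0.97 ± 0.93 (adjusted p = 0.48), and without 5XFAD 4 by −3.28 ± 0.39 (adjusted p = 0.000153) and −3.12 ± 0.47 (adjusted p = 0.000584).

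Genes of other cells that passed are given beside 5.99% of all genes tested over 9 libraries and 13.3% without 5XFAD 4. Gfap, the intermediate filament of astrocytes, was at 0.438, 1.49, 0.561 and 0.384 CPM in WT and 95.7, 188, 182, 1.82 and 159.9 CPM in 5XFAD (7.48 ± 1.21, adjusted p = 0.0162), the only one of 10 astrocyte markers that rose over 9 libraries. The astrocyte markers together summed to 183 to 274 CPM in WT, 144 CPM in 5XFAD 4 and 258 to 390 CPM in the other 5XFAD libraries. Gfap carried the higher sums, as the other 9 markers summed to 182 to 274 CPM in WT and 162 to 209 CPM in these 4 libraries. Without 5XFAD 4 the astrocyte gene S100b rose and the gap junction gene Gja1 fell. Cspg4, a proteoglycan of oligodendrocyte precursors and pericytes, was the only one of 9 oligodendrocyte lineage genes that rose (4.75 ± 0.84, adjusted p = 0.0175). Of 13 endothelial and mural genes Flt1, a receptor for VEGF, rose (3.32 ± 0.86, adjusted p = 0.0369) and Pecam1 and Pdgfrb fell. Of 10 monocyte genes 0 rose, and Emb and Ccr2 fell. Without 5XFAD 4, Plac8 was among those that fell as well, and so were 3 of 10 neutrophil genes (S100a9, Mmp9 and Cxcr2) and 3 of 5 erythroid genes (Hbb-bs, Hbb-bt and Hba-a1), of which 0 were DEGs over 9 libraries. Without WT 1 as well, 1 of 10 neutrophil genes and 0 of 4 erythroid genes fell, and the neutrophil median moved from −1.70 to −0.58. Of 6 lymphocyte genes Klrb1c and Cxcr6 rose, and 0 of 7 neuron genes tested were DEGs. Over 9 libraries, leaving out 1 library other than 5XFAD 4 left at most 1 rise and at most 2 falls in each of these lists. Beside 5XFAD 4 the falls ranged over 1 to 6 for neutrophil, 0 to 3 for erythroid, 2 to 4 for monocyte, 2 to 5 for endothelial and mural and 0 to 3 for neuron genes, and the rises over 2 to 3 for astrocyte and 1 to 3 for oligodendrocyte genes. Which cells these transcripts came from was not tested.

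Among the 30 orthologs of Alzheimer's disease risk genes tested, 3 rose over 9 libraries (Apoe, Ctsb and Trem2) and 2 fell (Cass4 and Ms4a4a). That is 5 of 30, against 5.99% of all genes tested. Without 5XFAD 4, 3 of the 30 rose and 2 fell as well, against 13.3% of all genes tested in that fit. When 1 library was left out, 0 rose and 0 to 1 fell, and beside 5XFAD 4 it was 3 to 5 and 1 to 3. Of 31 transcription factor genes of microglia, Hif1a and Rxrg were among those that rose. Rxrg, a retinoid X receptor, was at 3.61, 3.97, 3.88 and 5.16 CPM in WT and 18.5, 20.7, 19.9, 6.27 and 21.6 CPM in 5XFAD (2.07 ± 0.33, adjusted p = 0.0161). Of 18 Toll-like receptor and adaptor genes Tlr2 rose and Tlr8 and Tlr5 fell, and of 16 complement genes Itgax rose and the properdin gene Cfp fell. Without 5XFAD 4, 4 transcription factor genes rose and 1 fell, 1 Toll-like receptor gene rose and 2 fell, and 4 complement genes rose and 1 fell. The ranges of the rises were 0 to 4, 0 to 1 and 0 to 3 with 1 library left out, and 4 to 5, 1 to 2 and 3 to 5 beside 5XFAD 4. Those of the falls were 0 to 1, 0 to 1 and 0, so the fall of Cfp was lost in each, and beside 5XFAD 4 they were 1, 1 to 2 and 0 to 1.

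Whether the genotype difference under NX was another than that under CIH was tested as the interaction of genotype and treatment over the 19 female libraries. Of 15582 genes tested 0 passed (0%), and 589 had an unadjusted p under 0.05. For Spp1 and Dkk2 every CIH library lay with its genotype. In the lowest, median and highest of 5 libraries each, Spp1 was at 6.78, 9.22 and 17.96 CPM in WT CIH and 467, 1347 and 2046 CPM in 5XFAD CIH. Its interaction term was 5.86 (adjusted p = 0.952), and it rested on WT 1, without which it was 0.53 ± 1.19 (adjusted p = 0.999). Without 5XFAD 4 it was 5.55 ± 1.68 (adjusted p = 0.962), and without both 0.21 ± 0.75 (adjusted p = 0.999). Dkk2 was at 0, 0.154 and 0.36 CPM in WT CIH and 55.3, 72.9 and 83.4 CPM in 5XFAD CIH (interaction 0.34, adjusted p = 0.987). Mrc1 was at 72.2, 87.8 and 147 CPM in WT CIH and 35.7, 48.1 and 65.8 CPM in 5XFAD CIH (interaction 0.09, adjusted p = 0.976), and Ttr at 174, 519 and 959.9 CPM in WT CIH and 79.05, 199.7 and 369 CPM in 5XFAD CIH (interaction 1.14, adjusted p = 0.952). Dkk2 and Spp1 did not overlap between the CIH genotypes, Mrc1 did not either, and Ttr did.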

How the data were processed

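The authors made mRNA libraries of CD11b+ cells and had them sequenced in pairs of reads on an Illumina instrument. HISAT2 and GRCm38/mm10 are named in the submitters' processing notes, and the counting tool and gene annotation are not given in the sources used here. The deposited counts are whole numbers per gene without normalization. The deposited FPKM values are these counts divided by gene length and library total by the authors, which was checked. Each library was treated as 1 animal, as the titles number them and the study's methods call them independent; p-values measure the spread between these libraries.

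The test on the counts of the 9 libraries was edgeR's quasi-likelihood F test after TMM scaling (edgeR 4.0.16, R 4.3.3). A gene was tested when 3 or more libraries were over 1 CPM, and called at an FDR below 0.05 and an absolute log2 fold change above 1. A group with at most 3 counts in every library gave a bound against 3 counts. This floor covers counting error only. The interaction was fitted over 19 female libraries.

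The members, gene lists and tests were chosen with earlier results of these data known. Named genes were the 8 largest rises and 8 largest falls among DEGs without overlap between the groups (mean of at least 1 CPM in the higher group), over 9 libraries and without 5XFAD 4. In each list, the first 3 genes and the 2 largest called rises and falls were added, and other members where their list is described. Genes outside this rule, such as Mmp12, were picked after their values were seen.

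Alternatives were edgeR's likelihood ratio test, DESeq2 1.42.0, scaling by library size alone, other filters and limits, a single fit of all 4 female groups, each library left out, a block on the replicate number, and limma 3.58.1 on log2(FPKM + 1) and log2(FPKM + 0.1). Leaving out WT 1, alone or beside 5XFAD 4, list counts with each library left out, and the alternatives of the fit without 5XFAD 4 were chosen after seeing the data. The tests were tested on simulated counts. The results of the transgenes and of some other genes are not reported here, and the male libraries were not used.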

Additional observations from a re-analysis of the deposited data

Results flagged for a closer look

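Each value below is the gap between the highest or lowest library of a group and its neighbour, as a share of the group's whole range, on CPM, and exceeds Dixon's 95% critical value for 4 or 5 libraries. Chance gives about 1 such group in 20 where genes are picked without regard to their values. Of 205 groups examined, over 101 named genes and the totals, 36 were found, and 29 of these fell on the 2 libraries described first. Some named genes were picked in the fit without 5XFAD 4 or after their values were seen. Gaps at these libraries are thus partly built in, and the rate by chance is no reference for these counts.

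5XFAD 4 was the highest of its group, between the groups, among WT or above it, for genes that were lower in the other 5XFAD libraries: Pdzrn4 (0.895), Ccr3 (0.827), Bcat1 (0.898), Ptger3 (0.755), Gm31223 (0.88), Gm36774 (0.735), Gm40579 (0.89), Crybb1 (0.814), Ecscr (0.788), Gpr165 (0.792), Siglece (0.856), Clec4a2 (0.801), Cass4 (0.907) and Pecam1 (0.767). It was the lowest for Rxrg (0.795), Cd274 (0.779) and Tnfsf8 (0.823). Its number of genes with a count stood apart by 0.973 of the range.

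WT 1 was the highest of its group for Spp1 (0.995), Gpnmb (0.999), Mmp12 (0.994), Fabp5 (0.996), Lgals3 (0.975), Ccr1 (0.935), S100a4 (0.871), Mcoln3 (0.869), Egln3 (0.839) and Pkm (0.839), and held the only counts of its group for Ctnna3 (1). Of the 110 genes far higher in WT 1 than in the other WT libraries, 43 lay above all 3 of these in each of 5XFAD 1, 2, 3 and 5, and 76 lay above them in 5XFAD 4. The 110 were chosen for low values in WT 2 to WT 4 relative to WT 1, and the shares over all genes were not computed. These counts therefore do not show whether 5XFAD 4 shares the profile of WT 1, and the part of its many low counts was not tested. In the fit without WT 1 and 5XFAD 4, 41 of the 110 rose in 5XFAD, 2 fell (Atp8b4 and S100a6), 32 were not called and 35 were not tested.

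Among other libraries, 5XFAD 3 was the highest of its group for Sostdc1 (0.734), Mrc1 (0.776) and Cd209f (0.769). WT 2 was the highest for Gfap (0.84), the only one with counts of Yipf7 (1) and the lowest for Hif1a (0.842), and WT 3 was the highest for Sod3 (0.838).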

How the results depend on the processing

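The 869 DEGs over 9 libraries became 1180 with the likelihood ratio test, 1199 with DESeq2, 622 with library size alone, 947 with no filter, 704 with at least 10 counts in every library and 1276 with all 4 female groups in 1 fit. They became 7 at an FDR below 0.01, 2013 with no fold limit, and 457 and 760 with limma on log2(FPKM + 1) and log2(FPKM + 0.1). Leaving out each library in turn gave 27 to 1880. Over 8 libraries with the replicate block 6 remained in number. Deviations of same-numbered libraries from their group means correlated at r = 0.233, −0.0833, −0.0474 and 0.0714. The 5XFAD means included 5XFAD 4, so these values cannot decide whether the numbers pair the libraries. The 1880 DEGs without 5XFAD 4 became 1969 with the likelihood ratio test and 2114 with library size alone. The interaction gave 0 DEGs under each alternative run. Over 101 named genes and all alternatives, 6 values reversed and 542 lost the call, most often under the replicate block or without WT 3. Mmp12 turned to 0.10 with the replicate block and ranged from −4.29 to 1.26 as libraries were left out. Lgals3 turned to 0.89 with the replicate block, to 0.83 and 0.93 with limma on log2(FPKM + 1) and log2(FPKM + 0.1), and ranged from −0.72 to 2.55 as libraries were left out. The upper ends of both ranges are without WT 1. With library size alone the list counts over 9 libraries were 22 DAM, 17 interferon, 6 lysosomal and 2 cholesterol genes higher, and 8 border macrophage genes lower. Depth limits genes near 1 CPM, where 14.7 to 25.9 reads were counted.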

Other observations

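Genes of the cytosolic ribosome were higher in 5XFAD 1, 2, 3 and 5 than in WT. Of 86 tested, 19 rose over 9 libraries and 0 fell (median log2 fold change 0.94), and without 5XFAD 4 68 of 85 rose (median 1.13). They summed to 12520 to 17598 CPM in WT, 12267 CPM in 5XFAD 4 and 25652 to 37951 CPM in the other 5XFAD libraries, so that the ranges of the latter and WT did not overlap. With any 1 library other than 5XFAD 4 left out 0 to 1 rose, 1 being the count without WT 1, and beside 5XFAD 4 it was 50 to 79, with medians of 0.84 to 1.02 and 1.04 to 1.27. With libraries scaled by their totals alone the counts were 2 and 27, with medians of 0.74 and 0.90. Ribosomal protein genes have many near-identical pseudogenes, among which reads may be split. Of 78 genes of the mitochondrial ribosome and 38 of the proteasome 0 were DEGs with edgeR in either fit, and the sign of their medians depended on the scaling.

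Among other lists, to be read beside 4.4% of all genes called higher over 9 libraries, 2 of 30 cell cycle genes rose over 9 libraries, which were Cdk1 and Cdkn2a, a gene of 2 cell cycle inhibitors. Of 22 immediate early genes that tissue dissociation can induce, 3 rose (Atf3, Egr2 and Hspa1b), and the medians of all 22 were 0.34 over 9 libraries and 0.11 without 5XFAD 4, the latter −0.12 with libraries scaled by their totals alone. Of 11 purine receptor and ectonucleotidase genes Adora1, an adenosine receptor, rose and 0 fell (median −0.29). Without 5XFAD 4 Adora1 rose, and P2ry12 and Ada fell (median −0.36). Of 20 genes of TGF-beta signalling Bambi, a decoy receptor, rose. Without 5XFAD 4, 3 of 29 cell cycle, 3 of 22 immediate early and 1 of 19 TGF-beta genes rose and 0 fell. In that fit 7.16% of all genes were higher and 6.13% lower. For iron and redox genes 0 of 26 passed over 9 libraries in edgeR, and without 5XFAD 4 3 rose and 1 fell. With 1 library other than 5XFAD 4 left out 0 to 6 cell cycle, 0 to 3 immediate early, 0 to 1 purine receptor, 0 to 1 TGF-beta and 0 to 2 iron and redox genes rose, and beside 5XFAD 4 it was 3 to 5, 2 to 4, 1 to 2, 1 to 2 and 2 to 7.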
